A study of Mus musculus with 16 samples.

Results

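The 10 genes described here encode the core transcription factors of mouse embryonic stem cells (ESCs), Pou5f1, Sox2 and Nanog, and the factors of the naive state that sustain them, Klf2, Klf4, Klf5, Esrrb, Tbx3, Prdm14 and Tfcp2l1. They were chosen by name from the 26127 genes of the table, and 9 of the 10 were found under their own symbol. Tfcp2l1 was found under its older symbol, Tcfcp2l1. Total RNA depleted of ribosomal RNA had been sequenced from 16 libraries, namely 8 wildtype (WT), 4 with the genotype Dnmt1-/- (Dnmt1 KO) and 4 with the genotype Dicer/Dnmt1 -/- (Dicer/Dnmt1 KO). Libraries are numbered and lettered (A or B) within a group. Whether libraries that share a number come from separate cultures is not given, so p-values measure the spread between these libraries, which may be partly technical. A fit that let A and B of a number correlate estimated a correlation of 0.667 between them. The libraries of a number are thus not independent. Each n counts libraries, and p-values of fits that take every library as a replicate may be too small.

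All libraries are labelled as ESCs of the E14 background. The study's methods describe a parent line of another strain, C57BL/6, in which Dnmt1 was flanked by loxP sites and removed by a tamoxifen-induced Cre recombinase, and Dicer lines made from it with CRISPR/Cas9 as colonies of single cells. They also describe culture in serum with LIF, with or without feeder cells. The labels do not say which of these lines, how many clones, which culture or how many days after Cre induction each library stands for, nor whether the WT cells carried the loxP alleles or received tamoxifen. Dnmt1 maintains DNA methylation when DNA is copied, and Dicer1 cuts precursors into microRNAs and other small RNAs.

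Pou5f1 (Oct4), Sox2 and Nanog bind DNA together at many enhancers and promoters of ESCs and keep each other's genes active. LIF acts through Stat3 on Klf4 and Tfcp2l1, and Esrrb, Klf2, Klf5 and Tbx3 add overlapping support, so that the loss of a single factor is often tolerated. Prdm14 restrains FGF signalling and the de novo methyltransferases. The naive state resembles the epiblast before implantation and is lost as cells pass to the formative and primed states.

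Values are log2 RPM as deposited, that is, the log2 of reads scaled to the size of the library. Library totals were 31.5 to 52.5 M reads, and 3 reads stood for 0.0571 to 0.0954 RPM. The 10 genes lay far above this floor, with the fewest reads, 88, for Klf2 in WT 4B. Dnmt1 ranged over 4.17 to 4.63 in Dnmt1 KO and over 4.49 to 4.64 in Dicer/Dnmt1 KO, and Dicer1 at 3.68 to 4.06 in Dicer/Dnmt1 KO, each below all WT libraries. WT 4A and WT 4B stood apart from the other WT libraries. Their Dnmt1 levels were 5.69 and 5.55, beside 7.40 to 7.66 in the other 6, and their Dicer1 levels were 4.78 and 4.56, beside 5.15 to 5.68. Where a call or the sign of a difference changed without this pair, both values are given.

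A gene was called when limma, fitted to all 16 libraries and 12892 genes, gave a Benjamini-Hochberg (BH) adjusted p-value under 0.05. All 10 genes passed the filter on low values, which required more than 1 RPM in at least 4 libraries. In Dnmt1 KO against WT, 4 of the 10 fell (Sox2, Nanog, Klf4 and Tfcp2l1), none rose and 6 were not called. At an unadjusted p under 0.05 in limma, Klf2 was also higher. Over all tested genes 41% were called in this comparison, 23.5% higher and 17.5% lower. The share of the 10 genes that was called is thus near the background, while the median difference of the 10 was -0.20 log2 RPM beside 0.04 over all tested genes.

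Between the knockouts, 6 of the 10 were higher in Dicer/Dnmt1 KO than in Dnmt1 KO (Klf2, Prdm14, Tfcp2l1, Nanog, Sox2 and Esrrb) and none was lower, also at an unadjusted p under 0.05 in limma. The background was 36.3% of tested genes called, 16.9% higher and 19.4% lower. The median difference of the 10 genes was 0.46 log2 RPM, beside -0.01 over all tested genes. Against WT, 3 of the 10 rose in Dicer/Dnmt1 KO (Klf2, Prdm14 and Tfcp2l1) and none fell, also at an unadjusted p under 0.05, beside 61.9% of all tested genes called, 31.9% higher and 30.1% lower. The median difference of the 10 was 0.11 log2 RPM in that comparison and 0.02 over all tested genes. Pou5f1, Klf5 and Tbx3 were called in no comparison of the limma fit with all libraries, and none of them reached an unadjusted p under 0.05. The comparisons share libraries, so their counts are not independent of each other.

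With the A and B libraries of a number averaged before the fit, 2, 2 and 4 of the 10 genes were called in Dnmt1 KO against WT, Dicer/Dnmt1 KO against WT and Dicer/Dnmt1 KO against Dnmt1 KO. The background shares were then 17.7%, 39.8% and 9.5%. Groups that did not overlap in any library were found for 2 of the 10 in Dnmt1 KO against WT, 2 of the 10 in Dicer/Dnmt1 KO against WT and 8 of the 10 in Dicer/Dnmt1 KO against Dnmt1 KO. The background shares of such genes were 23.2%, 41.4% and 43.2%.

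**Figure D1:**
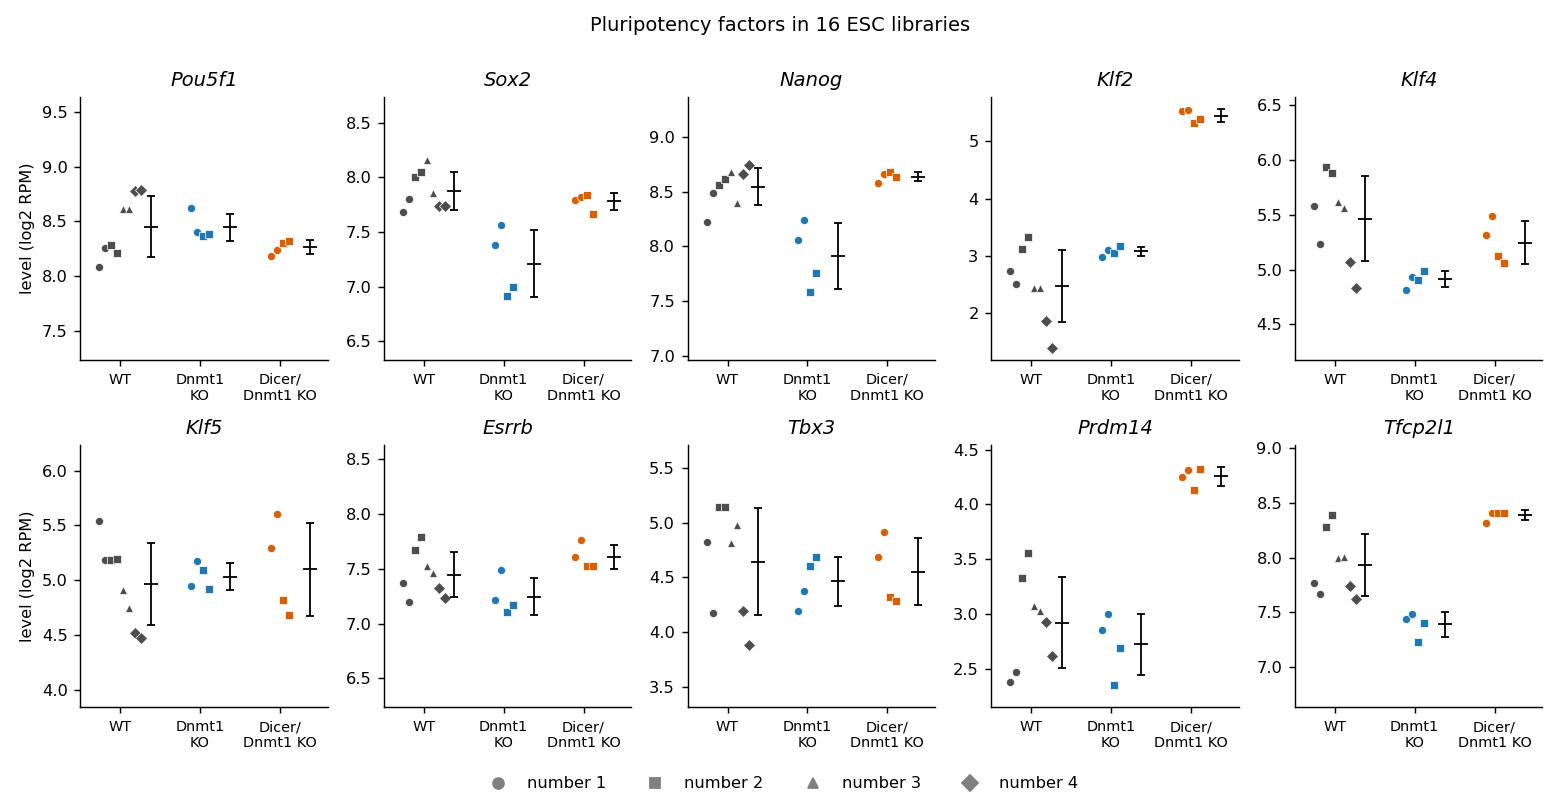
Level of each of the 10 genes in log2 RPM in every library, with the replicate number given by the marker shape and the group mean ± SD as a bar at its right. Each panel spans 2.4 log2 units except that of Klf2, which spans 4.6. Klf2 and Prdm14 in the 4 Dicer/Dnmt1 KO libraries lay above all other libraries.

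Nanog, the homeodomain factor that stabilises self-renewal, lay lower in the Dnmt1 KO libraries. In WT its level ran from 8.22 (WT 1A) over a median of 8.59 to 8.75 (WT 4B). The Dnmt1 KO libraries were at 8.06 in 1A, 8.25 in 1B, 7.58 in 2A and 7.76 in 2B, and in Dicer/Dnmt1 KO 8.58, 8.66, 8.68 and 8.64 in the same order. Dnmt1 KO 1B overlapped the lowest WT library, the number 2 libraries of Dnmt1 KO were the lowest of the group, and no Dicer/Dnmt1 KO library overlapped Dnmt1 KO.

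The mean of Nanog fell from 8.55 ± 0.17 (SD, n = 8) in WT to 7.91 ± 0.30 (n = 4) in Dnmt1 KO, a difference of -0.64 ± 0.11 (SE; limma, BH adjusted p = 0.000226), or 0.64 times the WT level. The Dicer/Dnmt1 KO mean was 8.64 ± 0.04 (n = 4), above Dnmt1 KO by 0.73 ± 0.13 (adjusted p = 0.000365, limma). Of 34 alternatives, 1 lost these Nanog calls, the fit with letter B libraries only (limma adjusted p = 0.0501 and 0.0758). Against WT the difference in Dicer/Dnmt1 KO was 0.09, with a 95% interval of -0.15 to 0.33 and an adjusted p of 0.493. With quantile normalization this last difference was 0.33 (adjusted p = 0.0098), and with the trend with transcript length removed it was 0.22 (adjusted p = 0.0463).

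Sox2, the HMG-box partner of Pou5f1, had a similar order of groups. Its WT level ran from 7.68 over a median of 7.83 to 8.16. Sox2 in Dnmt1 KO was at 7.38 in 1A, 7.56 in 1B, 6.91 in 2A and 6.99 in 2B, all below WT, and in Dicer/Dnmt1 KO at 7.79, 7.82, 7.84 and 7.66. As with Nanog, the number 2 libraries of Dnmt1 KO were its lowest, and the Dicer/Dnmt1 KO libraries lay above all Dnmt1 KO libraries.

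Sox2 fell by 0.67 log2 RPM in Dnmt1 KO against WT (SE 0.11, limma adjusted p = 0.00018), to 0.63 times the WT level. It was higher in Dicer/Dnmt1 KO than in Dnmt1 KO by 0.57 ± 0.13 (SE, limma adjusted p = 0.00298). That call was lost in 3 of 34 alternatives, among them A and B averaged (adjusted p = 0.0869), and the highest limma adjusted p was 0.178. Between Dicer/Dnmt1 KO and WT the difference of Sox2 was -0.10, with a 95% interval of -0.34 to 0.14. The span of Sox2 overlaps another annotated gene, and Sox2 is 1 exon of 2457 bases on the plus strand of chromosome 3.

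Pou5f1, the POU factor without which ESCs lose their identity, was at 8.08 to 8.79 in WT, 8.37 to 8.63 in Dnmt1 KO and 8.19 to 8.32 in Dicer/Dnmt1 KO. The Dicer/Dnmt1 KO libraries lay below all Dnmt1 KO libraries and within the WT range. The difference of Dnmt1 KO from WT was -0.01, with a 95% interval of -0.26 to 0.25. That of Dicer/Dnmt1 KO from Dnmt1 KO was -0.18, with an interval of -0.48 to 0.11 and a limma adjusted p of 0.328. The sign of the first depends on which WT libraries are taken. It was 0.24 against WT numbers 1 and 2 (adjusted p = 0.0179) and -0.25 against WT numbers 3 and 4 (adjusted p = 0.0151). Without WT number 4 the first was 0.10 (adjusted p = 0.415, limma). With quantile normalization Pou5f1 differed from WT by 0.07 (Dnmt1 KO) or 0.05 (double knockout), neither of them called. Against WT numbers 3 and 4, Pou5f1 in Dicer/Dnmt1 KO was also lower, by -0.43 (adjusted p = 0.00017). Pou5f1 and Nanog both have processed copies elsewhere in the genome. Reads that could not be placed were discarded by mapping quality, so their levels may lack such reads.

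The promoters of Sox2 and Nanog are shown because their genes moved together in these groups and Dnmt1 acts on the cytosine of CpG. They come from the RefSeq promoter table (build GRCm38.p6), which held 7 of the 10 genes and covers 250 bases before and 50 after each start. Capitals mark CpG. The first listed Nanog window lies at chr6:122707239-122707538 and the Sox2 window at chr3:34649745-34650044, both on the plus strand.
Nanog: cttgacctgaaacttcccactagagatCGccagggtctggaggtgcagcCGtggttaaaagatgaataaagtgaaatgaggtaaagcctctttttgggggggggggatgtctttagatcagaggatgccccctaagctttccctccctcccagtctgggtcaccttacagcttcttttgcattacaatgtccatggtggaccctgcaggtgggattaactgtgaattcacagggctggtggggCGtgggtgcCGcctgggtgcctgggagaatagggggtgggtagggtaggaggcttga
Sox2: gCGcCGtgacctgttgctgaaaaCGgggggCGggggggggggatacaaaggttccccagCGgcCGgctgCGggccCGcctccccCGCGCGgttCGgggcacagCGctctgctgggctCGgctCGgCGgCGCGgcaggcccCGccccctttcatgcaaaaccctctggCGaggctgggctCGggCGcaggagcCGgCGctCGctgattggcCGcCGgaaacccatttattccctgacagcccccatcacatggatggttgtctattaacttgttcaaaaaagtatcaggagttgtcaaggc
The Nanog window holds 4 CpG and the Sox2 window 27, beside a median of 7.0 over 32851 promoters of this length, and 68.6% and 15.5% of promoters hold at least as many. The octamer letters ATGCAAA, searched on both strands, stand 99 bases before the start of Sox2. On the reverse strand they begin 75 bases before the Nanog start shown. The Sox letters CATTGT follow at 67 bases on the same strand without overlap. A second Nanog start is listed, with a window at chr6:122707315-122707614 that also holds 4 CpG. The same octamer and Sox letters lie 151 and 143 bases before that second start. Of all promoters 4.6% hold the octamer and 12.6% the Sox letters. DNA methylation and factor binding were not measured in these libraries.

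Klf2 showed the largest difference of the 10 genes in both comparisons of Dicer/Dnmt1 KO. Klf2, Klf4 and Klf5 encode zinc finger factors that bind GC-rich sites and can stand in for each other in ESCs. In WT the level of Klf2 ran from 1.39 (WT 4B) over a median of 2.47 to 3.32 (WT 2B). Klf2 in Dnmt1 KO was at 2.98 in 1A, 3.10 in 1B, 3.05 in 2A and 3.17 in 2B, within the upper part of the WT range. The Dicer/Dnmt1 KO libraries had 5.54, 5.55, 5.33 and 5.40. These 4 libraries lay well above every other library.

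The Klf2 mean of Dicer/Dnmt1 KO was higher than that of WT by 2.98 ± 0.25 log2 RPM (SE), a 7.89-fold rise (limma adjusted p = 2.46e-08). It was higher than that of Dnmt1 KO by 2.38 ± 0.29, a 5.20-fold rise (adjusted p = 9.94e-06, limma). Klf2 was called in both comparisons in each of the 34 alternatives fitted to single genes, with differences of 2.53 to 3.43 and of 2.25 to 2.55. Without WT number 4 the difference from WT was 2.70. For Dnmt1 KO against WT the difference was 0.60 ± 0.25 and not called (adjusted p = 0.0627). It was 0.32 without WT number 4 (adjusted p = 0.0916) and 1.05 against WT numbers 3 and 4 (adjusted p = 0.000265), and leaving out WT 2A or WT 2B gave 0.69 and 0.72 (adjusted p = 0.0308 and 0.0167).

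Klf2 lies on the plus strand of chromosome 8, at 74842932 to 74845555 of build NCBIM37, with 3 exons and 1847 bases of exon. Its RefSeq promoter, at chr8:72318812-72319111 of GRCm38.p6 on the plus strand, is shown because it belongs to the gene with the largest difference. Capitals again mark CpG.
Klf2: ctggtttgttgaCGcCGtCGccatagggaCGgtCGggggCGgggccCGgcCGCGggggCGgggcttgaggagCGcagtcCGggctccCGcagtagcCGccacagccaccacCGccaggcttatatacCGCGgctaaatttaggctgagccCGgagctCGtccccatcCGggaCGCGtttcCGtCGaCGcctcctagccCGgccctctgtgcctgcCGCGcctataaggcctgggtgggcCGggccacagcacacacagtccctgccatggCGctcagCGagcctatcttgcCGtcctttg
This window holds 32 CpG in 300 bases, and 9.5% of promoters hold at least as many. Neither the octamer nor the Sox letters were found in it.

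Klf4, a target of LIF signalling, was at 4.83 (WT 4B) to 5.94 (WT 2A) in WT, with a median of 5.57. Klf4 in Dnmt1 KO was at 4.81, 4.93, 4.90 and 4.99 in 1A, 1B, 2A and 2B, near the level of WT number 4 and below the other WT libraries. Its levels in Dicer/Dnmt1 KO were 5.32, 5.49, 5.12 and 5.06, above all Dnmt1 KO libraries and within the WT range. Klf4 fell by 0.55 in Dnmt1 KO against WT (SE 0.16, limma adjusted p = 0.0119), and by 0.73 without WT number 4. The call was lost with A and B averaged (adjusted p = 0.12), with letter B only (-0.42, adjusted p = 0.302) and against WT numbers 3 and 4 only (-0.36, adjusted p = 0.0549). The difference of Dicer/Dnmt1 KO from Dnmt1 KO was 0.34 ± 0.19 (adjusted p = 0.177, limma), which passed the threshold without WT number 4 (adjusted p = 0.0377). Klf4 in Dicer/Dnmt1 KO against WT was at -0.22 (adjusted p = 0.253), and at -0.39 without WT number 4 (adjusted p = 0.00701).

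Klf5 was at 4.47 to 5.53 in WT, 4.92 to 5.18 in Dnmt1 KO and 4.68 to 5.60 in Dicer/Dnmt1 KO, and all groups overlapped. Within Dicer/Dnmt1 KO the number 1 libraries, at 5.29 and 5.60, lay above the number 2 libraries, at 4.82 and 4.68. The Klf5 difference from WT was 0.07 for Dnmt1 KO, with a 95% interval of -0.33 to 0.46, and 0.13 for Dicer/Dnmt1 KO, with an interval of -0.26 to 0.53. Without WT number 4 these differences were -0.09 and -0.03, and neither was called. Against WT numbers 3 and 4 the latter was 0.44 (adjusted p = 0.0265, limma).

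Per length the make-up of these Klf factors differed between groups. Of the summed level of Klf2, Klf4 and Klf5 in RPM per kb of exon, Klf2 held 8.55% ± 1.77 (SD, n = 8) in WT, 13.7% ± 0.823 (n = 4) in Dnmt1 KO and 42.3% ± 4.17 (n = 4) in Dicer/Dnmt1 KO. The Klf4 share was 40.5%, 29.4% and 22.0%, and the Klf5 share 50.9%, 56.9% and 35.6%, in the same order. The sum was 36.8 ± 8.83, 33.5 ± 1.84 and 56.8 ± 9.41 RPM per kb. The ranges of the Klf2 share, 6.01% to 11.8%, 13.0% to 14.8% and 37.2% to 47.0%, did not overlap. Shares within a library do not depend on its depth, but they rest on the annotated exon lengths, and the 3′ UTR of Klf5 in this annotation has only 76 bases.

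**Figure D2:**
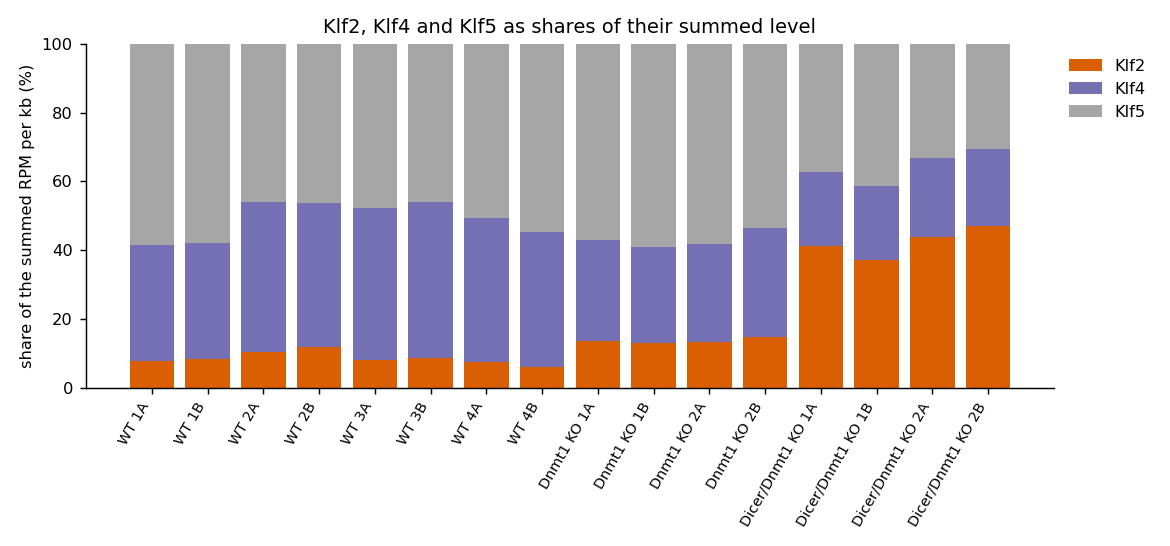
Share of Klf2, Klf4 and Klf5 in their summed level (RPM per kb of exon, %) in each library, as stacked bars to 100%. The Klf2 share was 6.01% to 11.8% in WT, 13.0% to 14.8% in Dnmt1 KO and 37.2% to 47.0% in Dicer/Dnmt1 KO.

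Esrrb, an orphan nuclear receptor downstream of Nanog and of WNT signalling, showed small differences. Its WT level ran from 7.20 over a median of 7.41 to 7.79. In Dnmt1 KO it was 7.22, 7.49, 7.11 and 7.17 in 1A, 1B, 2A and 2B, and in Dicer/Dnmt1 KO 7.60, 7.76, 7.53 and 7.53. The Dicer/Dnmt1 KO libraries lay above those of Dnmt1 KO by a narrow margin. The difference of 0.36 ± 0.12 (SE) was called (limma adjusted p = 0.0284) but was lost in 11 of 34 alternatives, among them A and B averaged (0.217), the fit without a filter on low values (0.0501), and those that left out Dnmt1 KO 1A (0.0631), 2A (0.0784) or 2B (0.0687) or Dicer/Dnmt1 KO 1A (0.0566) or 1B (0.0906), with the adjusted p-values in parentheses. Esrrb was not called between WT and either knockout in limma, with differences of -0.20 (adjusted p = 0.139) for Dnmt1 KO and 0.16 (adjusted p = 0.199) for Dicer/Dnmt1 KO.

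Tfcp2l1, a CP2-family factor that acts downstream of LIF and Stat3, was lowest in Dnmt1 KO and highest in Dicer/Dnmt1 KO. In WT it ran from 7.62 (WT 4B) over a median of 7.88 to 8.38 (WT 2B). In Dnmt1 KO it was 7.44, 7.49, 7.23 and 7.40, below all WT libraries, and in Dicer/Dnmt1 KO 8.32, 8.41, 8.41 and 8.41. The Dicer/Dnmt1 KO libraries lay above all Dnmt1 KO libraries and overlapped the highest WT library.

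Tfcp2l1 fell by 0.54 in Dnmt1 KO against WT (SE 0.12, limma adjusted p = 0.00187). That fall was not called in 2 of 34 alternatives, A and B averaged (adjusted p = 0.0662) and letter B only (adjusted p = 0.145). It rose by 1.00 ± 0.14 in Dicer/Dnmt1 KO against Dnmt1 KO (adjusted p = 4.73e-05, limma) and was called there in each of the 34 alternatives. Against WT it rose by 0.45 ± 0.12 in Dicer/Dnmt1 KO (adjusted p = 0.00401, limma). That call was lost in 4 of 34 alternatives. These were A and B averaged (adjusted p = 0.0703), letter A only, letter B only and the trend with transcript length removed. With that trend removed the difference was 0.11 (adjusted p = 0.395). The exons of Tfcp2l1 sum to 9269 bases, the most of the 10 genes, and a small nuclear RNA gene of the U1 type on the same strand overlaps them.

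Tbx3, a T-box factor that supports Nanog, was at 3.88 to 5.15 in WT, 4.19 to 4.69 in Dnmt1 KO and 4.28 to 4.92 in Dicer/Dnmt1 KO. Both knockout ranges lay within the WT range. The Tbx3 difference from WT was -0.18 in Dnmt1 KO, with a 95% interval of -0.63 to 0.28, and -0.09 in Dicer/Dnmt1 KO, with an interval of -0.54 to 0.36. Without WT number 4 the Tbx3 differences were -0.38 (adjusted p = 0.0738) and -0.29 (adjusted p = 0.14, limma). A predicted gene on the other strand, Gm2301, overlaps exons of Tbx3. The study's methods describe stranded libraries, but whether the counting behind the deposited values used strand is not given in the sources used here.

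Prdm14 was the other gene with a rise of over 1 log2 unit in Dicer/Dnmt1 KO. In WT it ran from 2.38 (WT 1A) over a median of 2.98 to 3.55 (WT 2B). Prdm14 in Dnmt1 KO was at 2.85, 3.00, 2.35 and 2.69 in 1A, 1B, 2A and 2B, and in Dicer/Dnmt1 KO 4.25, 4.31, 4.13 and 4.32. The Dnmt1 KO libraries overlapped WT, and the Dicer/Dnmt1 KO libraries lay above both.

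Prdm14 was higher in Dicer/Dnmt1 KO than in WT by 1.33 ± 0.18 (SE; limma adjusted p = 8.7e-06), a 2.52-fold rise, and than in Dnmt1 KO by 1.53 ± 0.21 (adjusted p = 3.55e-05, limma), a 2.89-fold rise. Both calls were made in each of the 34 alternatives, with differences of 1.22 to 1.43 and of 1.40 to 1.64. Between Dnmt1 KO and WT the difference of Prdm14 was -0.20, with a 95% interval of -0.59 to 0.19. Prdm14 lies on the minus strand of chromosome 1, at 13103538 to 13117244 of NCBIM37, with 8 exons.

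**Figure D3:**
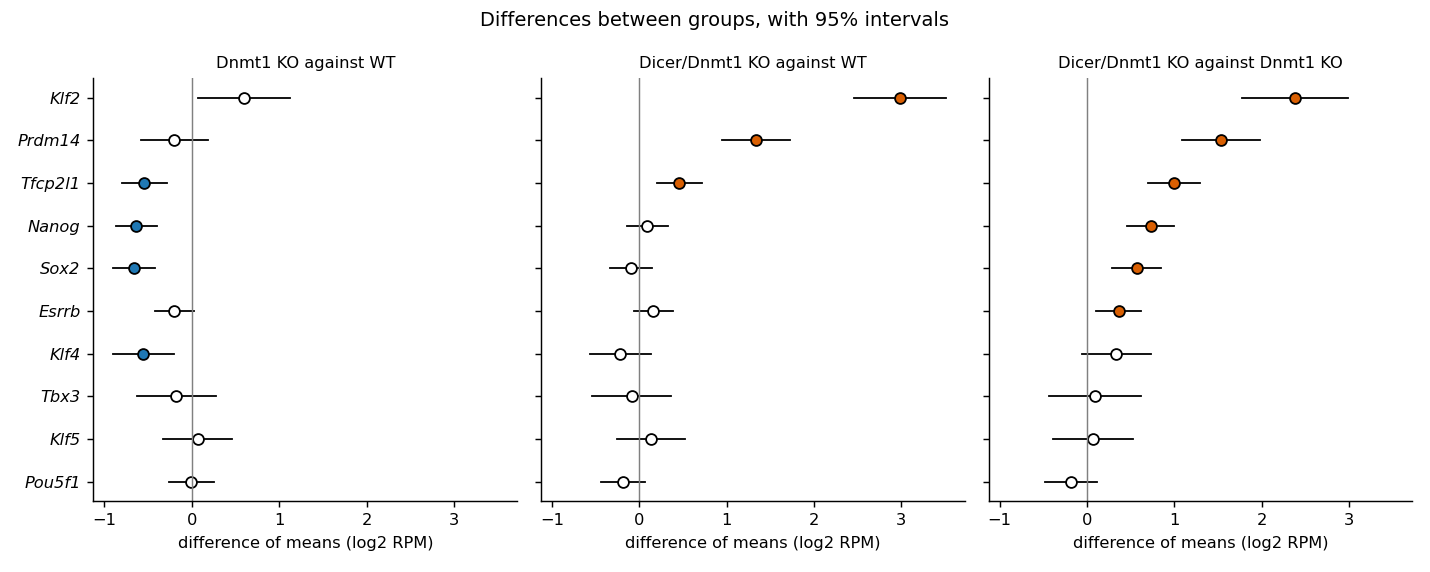
Difference of group means in log2 RPM (points) with 95% intervals from limma for the 10 genes in the 3 comparisons. Orange marks genes called higher, blue genes called lower and white genes not called. Klf2 differed by 2.98 from WT and by 2.38 from Dnmt1 KO in Dicer/Dnmt1 KO.

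Levels were compared between genes per kb of exon. In WT the order was Nanog (168 ± 19.1 RPM per kb, SD, n = 8), Pou5f1 (158 ± 30.0), Sox2 (96.3 ± 11.8), Esrrb, Tfcp2l1, Klf5, Klf4, Tbx3, Klf2 and Prdm14 (3.06 ± 0.882). Nanog and Pou5f1 overlapped, as did each pair of neighbours from Esrrb (29.1) to Klf4 (14.9) and from Tbx3 (4.88) to Prdm14. Sox2 lay apart from both of its neighbours. In Dnmt1 KO Pou5f1 came first, at 155 ± 13.5 RPM per kb (n = 4), with Nanog at 109 ± 22.5 and no overlap.

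The first place in Dicer/Dnmt1 KO was held by Nanog at 178 ± 5.08 RPM per kb (n = 4), above Pou5f1 at 136 ± 5.88 without overlap. Klf2 stood in place 6 of the 10 at 23.8 ± 1.74 RPM per kb, overlapping Klf5 at 20.6 ± 6.13 and above Klf4 at 12.5 ± 1.71. In WT it had stood in place 9 at 3.25 ± 1.32 RPM per kb, and in Dnmt1 KO in place 8 at 4.57 ± 0.258. Prdm14 at 7.46 ± 0.441 lay above Tbx3 at 4.45 ± 0.953 in Dicer/Dnmt1 KO, the reverse of their order in WT and Dnmt1 KO.

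**Figure D4:**
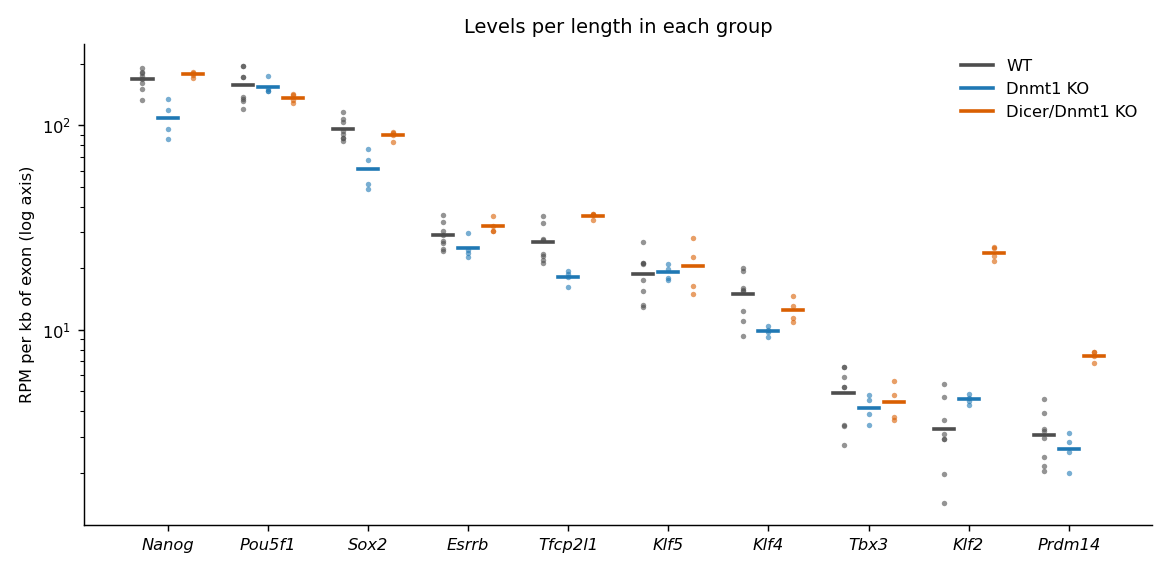
Level of each gene in RPM per kb of exon on a log axis, with a point for each library and a line at the group mean. Genes are ordered by their WT mean, from Nanog at 168 to Prdm14 at 3.06 RPM per kb.

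Because Dicer1 makes microRNAs, the 3′ UTRs of the 10 genes were searched for letters that pair with the seed (bases 2 to 8) of microRNA families known to be abundant in ESCs. MicroRNA levels were not measured in these libraries. A mature sequence of each searched family with a match is shown from the RefSeq miRNA table, with the seed in capitals.
miR-294-3p: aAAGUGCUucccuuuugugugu
miR-93-5p: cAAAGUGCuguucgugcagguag
miR-25-3p: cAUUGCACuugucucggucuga
miR-92a-3p: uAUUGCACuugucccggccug
The seed AAGUGCU is shared by miR-291a-3p, miR-294-3p, miR-295-3p, miR-302b-3p and miR-302d-3p, the seed AAAGUGC by miR-93-5p, miR-17-5p and miR-20a-5p, and the seed AUUGCAC by miR-25-3p and miR-92a-3p. Matches are given below as the transcript reads, with the paired letters in capitals, from GENCODE release M1 transcripts (NCBIM37).
Klf2: tttcaaaatgGTGCAATaattgactta
Klf4: ggtttcagatGTGCAATaatttgtaca
Tfcp2l1, first match: tcgatggccgAGCACTTcccaactgcg
Tfcp2l1, second match: gaagtagaagGTGCAATcagaagtctg
Tbx3: atctgccagtGCACTTTgttagatgta
The paired letters lie in the longest annotated 3′ UTR of each gene, at chr8:74845032-74845038 on the plus strand for Klf2, chr4:55540240-55540246 on the minus strand for Klf4, chr1:120579782-120579788 and chr1:120580307-120580313 on the plus strand for Tfcp2l1, and chr5:120133170-120133176 on the plus strand for Tbx3.

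The letters GTGCAAT were thus present in the 3′ UTRs of Klf2, Klf4 and Tfcp2l1, and 7.3% of the 12329 tested genes with an annotated 3′ UTR hold them. AGCACTT, held by 16.7% of those genes, was present in Tfcp2l1, whose 3′ UTR has 7733 bases beside a median of 1188. GCACTTT, which shares 6 letters with AGCACTT, was present in Tbx3 and in 14.2% of tested genes, and the letters for miR-290a-3p (GGCACTT, 9.5%) in none of the 10. Prdm14, Nanog, Sox2, Esrrb, Pou5f1 and Klf5 held none of the searched letters in these annotated UTRs. Of the 6 genes called higher in Dicer/Dnmt1 KO than in Dnmt1 KO, Klf2 and Tfcp2l1 thus held a match and the other 4 held none. Among the genes not called there, Klf4 and Tbx3 held a match, and Pou5f1 and Klf5 held none. The annotated 3′ UTRs of Pou5f1 and Klf5 have only 225 and 76 bases, so the lack of a match there says little.

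The wider pathway was described with gene lists. Their counts, and those of the cell type markers below, stand beside these shares of all tested genes. From WT to Dnmt1 KO 23.5% were called higher and 17.5% lower, and from WT to Dicer/Dnmt1 KO 31.9% and 30.1%. Between the knockouts 16.9% were higher in Dicer/Dnmt1 KO and 19.4% lower. These counts and shares take every library as a replicate. With A and B averaged, the shares called in either direction were 17.7%, 39.8% and 9.5% in the same order of comparisons. The lists were not recounted in that way. Of 18 other genes of the pluripotency network, limma called 5 higher and 4 lower from WT to Dnmt1 KO, 5 higher and 5 lower from WT to Dicer/Dnmt1 KO, and 2 higher and 7 lower from Dnmt1 KO to Dicer/Dnmt1 KO, with a median of -0.07 log2 RPM in the last. Lin28a, an RNA-binding protein that blocks let-7, had means of 7.46, 7.27 and 6.09 in WT, Dnmt1 KO and Dicer/Dnmt1 KO, and differed between the knockouts by -1.18 ± 0.10 (SE; adjusted p = 1.73e-07, limma). Gbx2, a homeobox gene under LIF, had means of 3.11, 4.58 and 3.62, with a rise of 1.47 in Dnmt1 KO against WT (adjusted p = 1.11e-07, limma).

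Of 14 genes of LIF, BMP and WNT signalling, 5 were higher and 4 lower in Dicer/Dnmt1 KO against Dnmt1 KO. Il6st, the gp130 subunit of the LIF receptor, had means of 5.69, 5.23 and 6.47 log2 RPM in WT, Dnmt1 KO and Dicer/Dnmt1 KO, and rose by 1.23 ± 0.11 against Dnmt1 KO (adjusted p = 3.73e-07, limma). Id1, a target of BMP, had means of 2.52, 3.80 and 2.22 and was lower than in Dnmt1 KO by -1.58 ± 0.26 (adjusted p = 0.000152). From WT to Dnmt1 KO 4 genes of this list were higher and 3 lower, and from WT to Dicer/Dnmt1 KO 5 and 4.

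Of 11 genes of FGF and ERK signalling, the pathway that drives exit from the naive state, 2 were higher and 4 lower in Dicer/Dnmt1 KO against Dnmt1 KO. The feedback inhibitors Spry2 and Dusp6, which are induced by ERK, were at 5.58, 5.42 and 4.19 and at 6.04, 6.27 and 5.09 log2 RPM in WT, Dnmt1 KO and Dicer/Dnmt1 KO. They differed between the knockouts by -1.23 ± 0.10 (adjusted p = 2.15e-07) and -1.18 ± 0.09 (adjusted p = 6.75e-08, limma). In the other comparisons 4 of the 11 were higher and 2 lower (Dnmt1 KO against WT), and 4 higher and 3 lower (Dicer/Dnmt1 KO against WT).

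Of the 9 tested genes of the formative and primed state, 1 was higher and 6 were lower from Dnmt1 KO to Dicer/Dnmt1 KO, where the median was -0.99 log2 RPM. Fgf5, a marker of the primed epiblast, had means of 1.70 in WT, 1.54 in Dnmt1 KO and -0.61 with both knockouts (-2.16 ± 0.37 between the knockouts, adjusted p = 0.000238, limma). Pou3f1 (Oct6) had means of 3.67, 3.87 and 2.28 (-1.59 ± 0.21, adjusted p = 2.56e-05). From WT to Dnmt1 KO 4 were higher and 2 lower, and from WT to Dicer/Dnmt1 KO 2 and 3.

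Of 14 other genes of the Klf family, 11 were tested, and 5 were higher and 1 lower in Dicer/Dnmt1 KO against Dnmt1 KO. Klf12 rose by 0.85 ± 0.19 (adjusted p = 0.00213, limma) and Klf3 by 0.76 ± 0.15 (adjusted p = 0.000752), each by less than Klf2. From WT to Dnmt1 KO 1 of the 11 was higher and 4 lower, and from WT to Dicer/Dnmt1 KO 2 and 1.

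**Figure D5:**
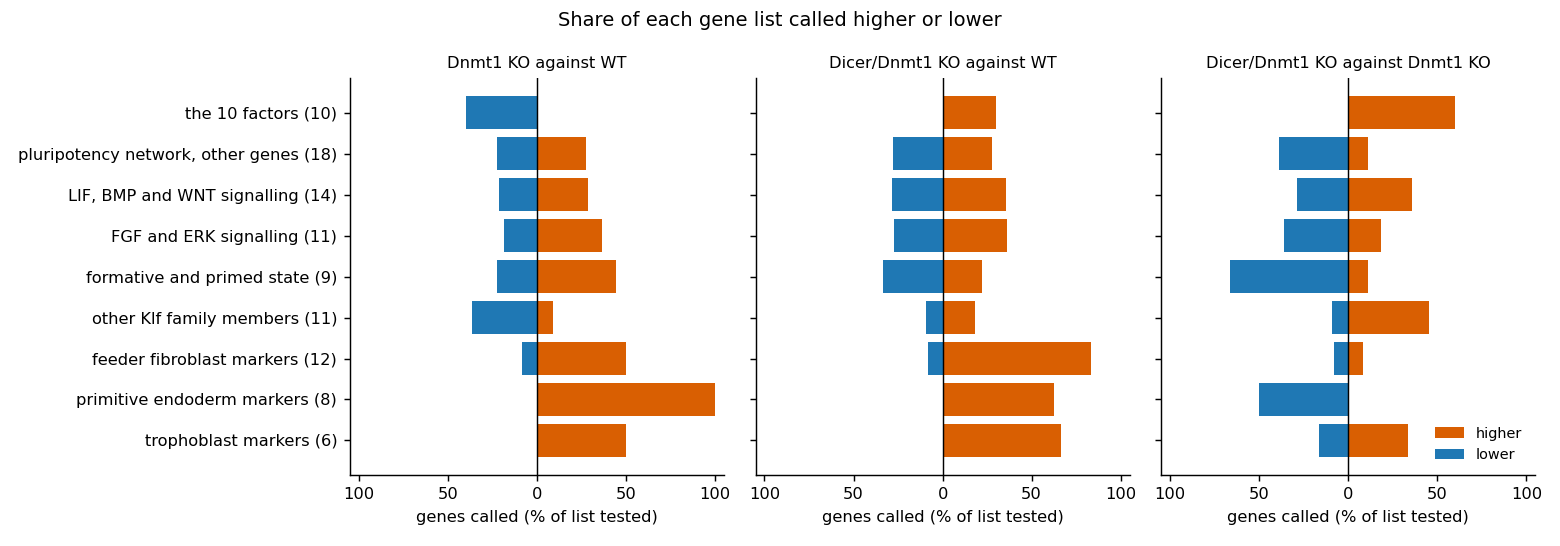
Share of the tested genes of each list called higher (right, orange) or lower (left, blue) in the 3 comparisons, in % of the list, with the number tested in parentheses. The 10 factors had 4 lower in Dnmt1 KO against WT and 6 higher in Dicer/Dnmt1 KO against Dnmt1 KO, and primitive endoderm markers had 8 of 8 higher in Dnmt1 KO against WT. Over all tested genes 17.5% were lower and 23.5% higher in Dnmt1 KO against WT. In Dicer/Dnmt1 KO against Dnmt1 KO 16.9% were higher.

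Markers of other cell types moved with these groups. In bulk libraries fewer cells of a type and less RNA per cell cannot be told apart. Of the primitive endoderm markers 8 of 8 were higher from WT to Dnmt1 KO and 5 of 8 from WT to Dicer/Dnmt1 KO, and 4 were lower in Dicer/Dnmt1 KO than in Dnmt1 KO. Their summed level was 51.8 to 109 RPM in WT, 128 to 218 RPM in Dnmt1 KO and 106 to 123 RPM in Dicer/Dnmt1 KO, so it was highest where Nanog and Sox2 were lowest. Gata6, the factor that opposes Nanog in the inner cell mass, had means of 0.68, 2.82 and 1.53 log2 RPM, and Sox7 of -0.28, 1.70 and -0.18. No marker of this list was without reads in all libraries of a group, and Foxa2 was under 1 RPM in all WT libraries. The part of such cells in the fall of Nanog, Sox2, Klf4 and Tfcp2l1 was not tested.

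Of 14 feeder fibroblast markers 12 were tested, and limma called 6 higher and 1 lower from WT to Dnmt1 KO, 10 higher and 1 lower from WT to Dicer/Dnmt1 KO, and 1 higher (Fbln1, 0.78) and 1 lower (Mmp2, -0.40) between the knockouts. Their sum was 66.4 to 119 RPM in WT, 115 to 137 in Dnmt1 KO and 124 to 207 in Dicer/Dnmt1 KO, while Lum and Dcn were under 1 RPM in all libraries. Of 6 tested trophoblast markers 3 were higher from WT to Dnmt1 KO, 4 from WT to Dicer/Dnmt1 KO, and 2 were higher (Tfap2c, 0.82, and Krt7, 0.60) and 1 lower between the knockouts. The sum over all 8 listed trophoblast markers was 25.9 to 43.5, 40.1 to 44.5 and 61.0 to 67.7 RPM. Of these 8, 5 were under 1 RPM in all WT libraries and 2 (Elf5 and Gata3) in all Dnmt1 KO libraries. In all Dicer/Dnmt1 KO libraries 3 were (Cdx2, Elf5 and Gata3). Tfap2c had means of 4.38, 4.65 and 5.47 log2 RPM in WT, Dnmt1 KO and Dicer/Dnmt1 KO, and Krt7 of 2.87, 3.00 and 3.60. Of the germ layer markers only Pax6 passed the filter, with means of 0.40, -0.19 and 1.15 log2 RPM, and 7 of the 9 in the table were under 1 RPM in all libraries of each group. The part of such cells in the rise of Klf2, Prdm14 and Tfcp2l1 was not tested.

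The genes whose log2 RPM followed a called factor most closely over the 16 libraries were named by Pearson's r among 11640 tested genes. These points share libraries, groups and depth, and the values describe them only. For Klf2 they were Phc3 (r = 0.989) and Fndc3a (0.988), for Prdm14 Tex14 (0.978) and Paqr8 (0.964), and for Tfcp2l1 Kit (0.960) and Brwd1 (0.955). For Sox2 they were Ralgps2 (0.978) and Klf10 (0.954), for Nanog Idh2 (0.972) and Apobec3 (0.970), for Klf4 Usp28 (0.95) and Trp53i11 (0.926), and for Esrrb Gcnt2 (0.928) and Tet2 (0.918). The 7 factors had no nearest gene in common.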

How the data were processed

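RNA abundance was measured in 16 libraries of ESCs (8 WT, 4 Dnmt1 KO and 4 Dicer/Dnmt1 KO), grouped by the genotype in the labels. Read trimming by the authors used Trim Galore (0.3.5, per the submitters' processing notes) and alignment used TopHat2 (2.0.11) on NCBIM37. They discarded alignments of low mapping quality and quantified genes in SeqMonk, so that the deposited unit is log2 RPM. Per the study's methods the authors called genes with DESeq2 and SeqMonk's intensity difference test. A further 35 value columns of the deposited table belong to other samples and were not used.

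Reads came back whole for 100% of the values in each library, with a gene without reads written as 0.9 read. Of 26127 genes 26114 were matched to GENCODE M1 (NCBIM37), which gave coordinates and merged exon lengths. In R 4.3.3, limma 3.58.1 was fitted with 1 mean per group to the log2 RPM of the 12892 genes above 1 RPM in at least 4 libraries, with an intensity trend and no covariate. BH adjusted p-values under 0.05 over all tested genes were calls. limma was used because the deposited unit is log2, no count test was run on the recovered reads, and no pseudocount was added. The 10 genes, the gene lists and the rule for naming genes (of each list, the pair with the largest difference among genes called in Dicer/Dnmt1 KO against Dnmt1 KO and at 2 RPM or more in a group, and for each called factor its 2 nearest genes by r) were chosen with earlier results of these data known. The fit was tested on simulated data in which all libraries were independent. That test could not show the effect of the correlation between A and B. Alternatives covered the replicate unit, WT libraries, scaling, filter, pseudocount, variance trend, transcript length, threshold and leaving out each library. The fit without WT number 4 was added after the data had been seen. Read floors and intervals cover counting error or library spread only. Sequences came from RefSeq tables (GRCm38.p6) and M1 transcripts, and were matched by symbol and gene identifier. Values were tabulated and drawn with Python 3.11.15, pandas 2.3.3, numpy 2.4.6 and matplotlib 3.10.9.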

Additional observations from a re-analysis of the deposited data

Results flagged for a closer look

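Of 30 groups of values (10 genes in 3 groups), 2 held a library far from the rest of its group, and chance flags about 1 group in 20. Pou5f1 in Dnmt1 KO 1A was at 8.63 log2 RPM, beside 8.37 to 8.41 in the other libraries of its group. Tfcp2l1 in Dicer/Dnmt1 KO 1A was at 8.32 log2 RPM, beside 8.41 in the other libraries of its group, a gap that is wide only against the very small spread of that group.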

How the results depend on the processing

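Of 1020 values of single factors under alternatives, 25 lost a call, 23 gained one and the others kept their side of the threshold. The sign changed in 36, none of them a value called with all libraries, and 3 of the 36 were called with the new sign. Whether numbers pair the samples across groups was not settled. Libraries of the same label in different groups had deviations correlated at -0.418 to 0.372. Libraries of different labels were not correlated for reference, so these values cannot decide it. With a replicate block by number, 5, 4 and 8 factors were called in Dnmt1 KO against WT, Dicer/Dnmt1 KO against WT and Dicer/Dnmt1 KO against Dnmt1 KO, and 6541, 7828 and 6690 of all tested genes. With a replicate block by number and letter the counts were 5, 4 and 6 factors and 5661, 7122 and 5864 genes. Pou5f1 in Dnmt1 KO against WT changed sign, to 0.24, under both forms of the replicate block and with WT numbers 1 and 2 only. The knockouts have only numbers 1 and 2, so these fits compare them with those WT libraries.

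In Dnmt1 KO against WT the 4 called factors became 2 with A and B averaged, 1 with letter B only and 0 at a minimum change of 2-fold (limma, and also 0 at an unadjusted p under 0.05 with that limit), and all genes called went from 5289 to 2288 averaged, 2723 with A and B as correlated libraries, 1833 with letter A, 1610 with letter B and 901 at 2-fold. In Dicer/Dnmt1 KO against WT the 3 called factors became 5 against WT numbers 3 and 4 and 5 with quantile normalization (beside 68.8% and 63.1% of all tested genes), and the 7985 genes 5134 averaged, 4002 with letter A, 4813 with letter B and 1650 at 2-fold. In Dicer/Dnmt1 KO against Dnmt1 KO the 6 called factors became 3 with letter B and 2 at 2-fold, and the 4682 genes 1225 averaged, 2109 correlated, 951 with letter A, 667 with letter B and 589 at 2-fold. Fits with one letter hold fewer libraries, and the cause of the other changes was not tested. Leaving out each of the 16 libraries gave 4 to 5, 3 and 5 to 6 called factors, and 4054 to 5624, 7109 to 8368 and 3690 to 5194 genes. Without WT number 4, 4, 4 and 7 factors were called, beside 44.9%, 61.2% and 44.8% of all tested genes.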

Other observations

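Pou5f1 separated the WT libraries by number. Numbers 1 and 2 had 8.08, 8.25, 8.28 and 8.22 log2 RPM in 1A, 1B, 2A and 2B, and numbers 3 and 4 had 8.61, 8.61, 8.78 and 8.79. Klf2 was at 2.74 and 2.51 in WT 1A and 1B, 3.11 and 3.32 in WT 2A and 2B, 2.43 in both WT 3A and WT 3B, and 1.85 and 1.39 in WT 4A and 4B, so it was lowest in number 4, where Pou5f1 was highest, but not highest in number 1. Klf5 was likewise lowest in WT 4A and 4B, at 4.51 and 4.47. The labels give no difference between the WT numbers.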
